A study of Mus musculus with 4 samples.

Results

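The genes described are the conjugating enzymes of drug and metabolite disposal, taken by symbol as the protein-coding Gst, Mgst, Ugt1, Ugt2 and Sult genes of the mouse. They numbered 66 of the 55487 genes listed, of which 26 belonged to glutathione, 19 to glucuronic acid and 21 to sulfate conjugation. The libraries came from mouse small intestinal (SI) organoids, epithelial cultures grown from isolated crypts in IntestiCult medium. One group carried a lentiviral miRNA mimic control (replicates 1 and 2, n = 2) and the other a lentiviral miR-181a-5p mimic (replicates 3 and 4, n = 2), and both were kept in puromycin (2 μg/ml). Strain, age and allele of the donor mice were not given in the labels, and nothing in the labels tells if replicates were separate cultures, so the p-values measure only the spread between these libraries.

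Phase II enzymes attach a polar group to a lipophilic compound and make it easier to export. Glutathione S-transferases (GSTs) join the thiol of glutathione to electrophiles, UDP-glucuronosyltransferases (UGTs) of the endoplasmic reticulum transfer glucuronic acid from UDP-glucuronic acid, and cytosolic sulfotransferases (SULTs) transfer sulfate from PAPS. In the gut they are abundant in enterocytes, where they act on compounds of food, bile acids, steroids and drugs during absorption. The glutathione class also holds the membrane-bound Mgst enzymes, and Gstcd, which is named for a GST C-terminal domain and is not known as a conjugating enzyme.

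The agent that separated the groups was a mimic of miR-181a-5p. Its mature sequence (RefSeq, GRCm38.p6) is shown because bases 2 to 8, the seed in capitals, pair with target mRNAs. It is encoded at chr1:137966468-137966490 and chr2:38852741-38852763, on the plus strand of both.
miR-181a-5p: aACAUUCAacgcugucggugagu
A match to the whole seed, TGAATGT in the transcript, was sought in the longest annotated 3' UTR of each gene. Of 64 listed members with an annotated 3' UTR of at least 50 bases, 1 held it (1.56%). Among the 45 of these that were tested the share was 2.22%, against 18.4% of 12842 tested genes. The members' 3' UTRs were shorter, with a median of 487 bases for listed and 539 for tested members, against 1166. The member with a match was Sult1d1, whose site began at base 1174 of 1292 in its 3' UTR (chr5:87554757-87554763, minus strand of GRCm38). It is shown with its flanks, the match in capitals, and no A followed it.
Sult1d1: attatgtttaaTGAATGTcttactatttt
No member of the glutathione or glucuronic acid class held a match, so these letters were absent from the 3' UTRs of most genes described here. A match is a description of the sequence and not evidence of binding.

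Expected counts, RSEM's estimate of the reads from each gene, were tested with edgeR's quasi-likelihood test and adjusted by the Benjamini-Hochberg method over the 17155 genes that passed the filter on low counts. A gene was called when its adjusted p was under 0.05 and its fold change at least 2, the thresholds of the study. Levels are given as TPM (a transcript abundance corrected for gene length) in the order control 1, control 2, mimic 3 and mimic 4, and differences as the log2 fold change of the mimic over the control from the count test, ± its SE. Of the 66 members, 46 passed the filter (8 sulfate, 24 glutathione and 14 glucuronic acid), and 14 had 0 counts in every library.

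Among these 46 genes, 1 was called lower with the mimic and 0 higher, where 1.47% of all tested genes were called lower and 0.589% higher. With the adjusted p alone, 6 members fell and 1 rose. The corresponding background was 2.29% lower and 1.28% higher. At an unadjusted p under 0.05, 15 of the 46 members were lower and 5 higher, against 13% and 11.8% of all tested genes. The genes that fell were Sult1c2 and Sult1d1 (sulfate), Gstm2, Gstp3 and Gstt1 (glutathione) and Ugt2b35 (glucuronic acid), and the gene that rose was Gsto1 (glutathione). In TPM, both mimic libraries lay below both controls in 17 of the 46 members and above them in 9, against 22.4% and 31.6% of all tested genes. The counts moved with single libraries. The number called lower was 3 without control 1, 4 without mimic 3 and 3 without mimic 4, and 1 member was called higher without control 2 and without mimic 4. Members that rose numbered 0 without control 1 or mimic 3 and 5 without control 2 or mimic 4, while the genes past the adjusted p over the whole table went from 612 to 603, 373, 2365 and 825 in the same order. DESeq2 also called 1 member lower and 0 higher, whereas limma on log2(TPM + 1) placed no member under an adjusted p of 0.05 and 18 under an unadjusted p of 0.05.

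**Figure D1:**
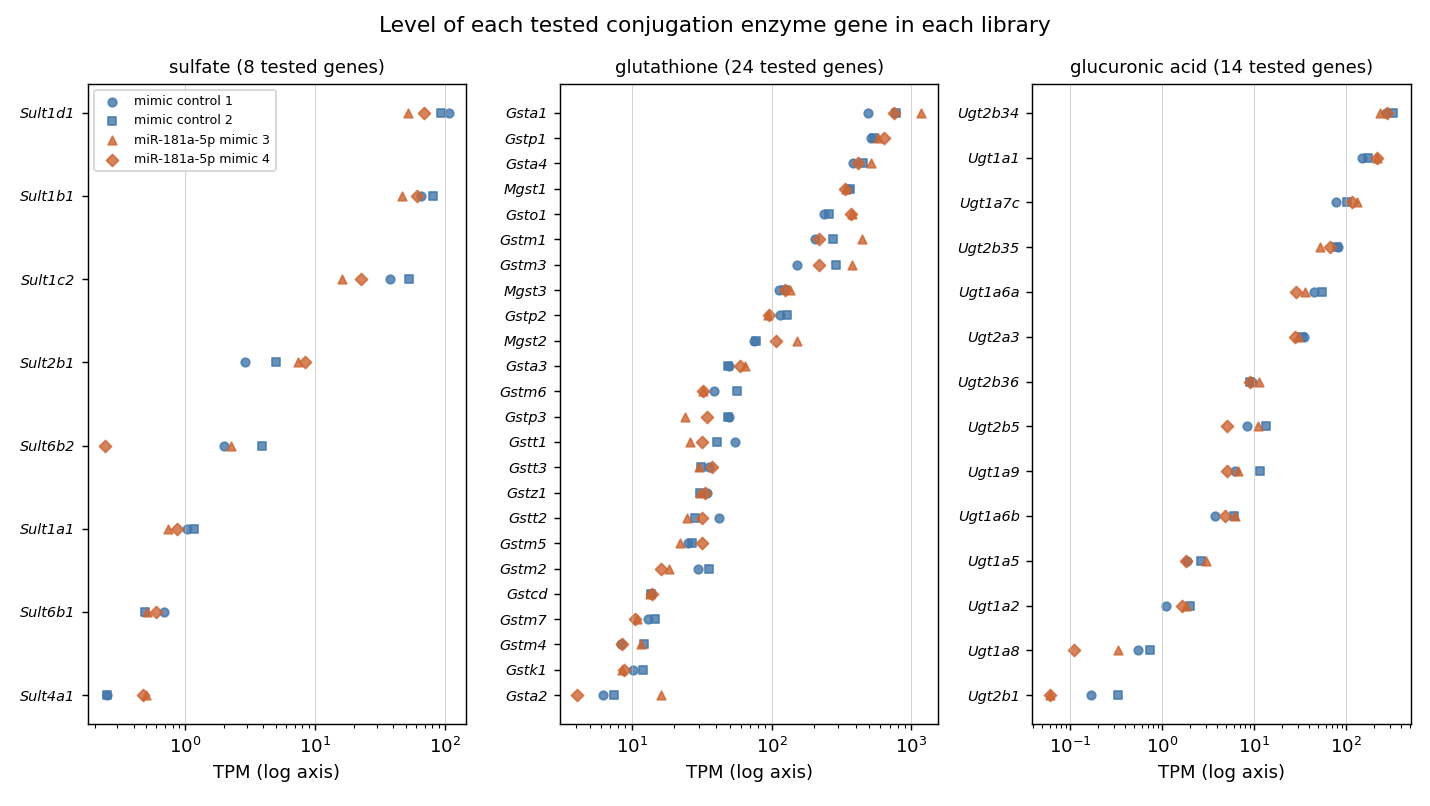
TPM (log axis) of the 46 tested members in the 4 libraries, in one panel per class and ordered by mean level, with circles and squares for controls 1 and 2 and triangles and diamonds for mimics 3 and 4. Sult1c2 and Sult1d1 have both mimic symbols to the left of both control symbols, and Gsto1 has both to the right.

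The summed level of the enterocyte markers was lower in both mimic libraries than in both controls. That separation was lost without Anpep, and few of the markers separated the groups. Fewer cells of a type and less RNA per cell cannot be told apart in such libraries, and the markers are given beside the lower levels of Sult1c2, Sult1d1, Ugt2b35 and the exporter gene Abcc3. The summed TPM of 8 enterocyte markers was 3118 and 4335 for the controls against 2643 and 2576 for the mimic libraries. Of these markers 1 fell, Anpep (log2 fold change -2.14 ± 0.23, adjusted p = 0.00812), with 656, 448, 103 and 162 TPM. Without Anpep the sums of the remaining enterocyte markers overlapped between the groups. The lower sum did not come from Anpep alone. Mean TPM was 552 for the controls against 133 for the mimic libraries in Anpep, and 1349 against 739 in Fabp1. Fabp1 was lower without passing in the quasi-likelihood test used here (-0.91 ± 0.28, adjusted p = 0.109). The study's own edgeR analysis gave Fabp1 an adjusted p under 0.05, at a fold change under 2. Sis had the opposite sign (0.16), and the groups overlapped for Vil1, Alpi, Apoa4, Fabp2 and Slc5a1. Of 4 stem cell markers Lgr5 fell (-1.38 ± 0.26, adjusted p = 0.0369), while the sums overlapped between groups. None of the 4 Paneth, 4 goblet, 4 enteroendocrine or 4 tuft cell markers passed, and their sums overlapped. The 4 mesenchymal markers summed to at most 0.16 TPM and the 4 immune markers to at most 1.34, with Ptprc at most 0.04. Of the hepatocyte list Alb stayed at or under 0.26 TPM and Serpina1a at or under 0.15, while Ttr had 67.6, 46.6, 20.2 and 35.9 TPM and Apoa2 5.85, 5.48, 2.73 and 2.63 TPM, lower with the mimic though neither passed. The mitochondrial share of counts was 4.30% and 4.55% for the controls against 3.46% and 3.43% for the mimic libraries. The part of cell composition and of RNA content in the differences was not tested.

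The sulfate class had the lowest summed level. The summed TPM of its 21 genes was 218 and 238 for the controls against 127 and 164 for the mimic libraries, with no overlap, and the ratio of the group means was 0.636. The median log2 fold change of its 8 tested genes was -0.46, where the median of all tested genes was -0.01. It was the lowest of the 3 class medians, except without mimic 3 (-0.37, with -0.40 for glucuronic acid). Most of the sum came from SULT1 genes, since Sult1d1 held between 39.0% and 49.1% of it, Sult1b1 between 30.2% and 37.6%, and Sult1c2 between 12.7% and 22.3%.

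Sult1c2, a cytosolic sulfotransferase of the SULT1 family, was the only member called. Its level was 38.2, 53.1, 16.1 and 22.5 TPM, from 2174, 2413, 743 and 1084 expected counts. Both mimic libraries lay well below both controls. The log2 fold change was -1.31 ± 0.18, a 2.48-fold lower level (adjusted p = 0.0155 by edgeR's quasi-likelihood test). The gene lies at chr17:53829637-53846339 (minus strand, GRCm38), and none of its 100-base transcript windows occurred in another gene. The call held without each library in turn (log2 fold change between -1.53 and -1.06).

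Sult1d1, which sulfates catecholamines in the mouse, was the sulfotransferase with the highest level and the one with the seed match shown above. It stood at 107, 93.0, 51.8 and 69.3 TPM. The groups did not overlap, and mimic 3 was the lowest library. The log2 fold change was -0.84 ± 0.15 (adjusted p = 0.0329), a 1.79-fold difference that stayed under the fold threshold. Without mimic 3 the log2 fold change was -0.68 with an adjusted p of 0.0685, within a range of 4.77e-05 to 0.32 over all alternatives.

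Sult1b1, which sulfates phenols and thyroid hormones, lies beside Sult1d1 on chromosome 5. Its levels were 66.0, 81.5, 47.3 and 61.7 TPM, lower in both mimic libraries but with mimic 4 close to control 1. The difference of -0.52 ± 0.13 did not pass (adjusted p = 0.077). It passed without control 1 (-0.65, adjusted p = 0.0298) and without mimic 4 (-0.66, adjusted p = 0.0489), within a range of 0.0142 to 0.42 over the alternatives. Sult2b1, which sulfates cholesterol and other 3-beta-hydroxysteroids, had levels of 2.90, 4.98, 7.38 and 8.31 TPM. Here both mimic libraries were above both controls, opposite to the SULT1 genes. The log2 fold change of 0.96 ± 0.25 did not pass (adjusted p = 0.0774), and without control 2 it was 1.32 with an adjusted p of 0.0116, the lowest of a range up to 0.333. The ratio of Sult2b1 to Sult1c2 within a library, which does not depend on scaling, was 0.0759 and 0.0937 for the controls against 0.459 and 0.369 for the mimic libraries.

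Of the 4 other tested sulfotransferases, none passed the test. Sult6b2 had 2.00, 3.89, 2.26 and 0.24 TPM, so mimic 4 alone stood apart. Its log2 fold change of -1.34 ± 0.75 (adjusted p = 0.305) became -3.92 with an adjusted p of 0.00412 when mimic 3 was left out, and the range over the alternatives was 0.00412 to 0.644. Sult1a1, Sult4a1 and Sult6b1 stayed at or under 1.16 TPM in every library. The remaining 13 sulfotransferase genes were at 0 counts in all libraries. They were Sult1c1, Sult1e1, the estrogen sulfotransferase, all 8 Sult2a genes, which sulfate hydroxysteroids and bile acids, and Sult3a1, Sult3a2 and Sult5a1.

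**Figure D2:**
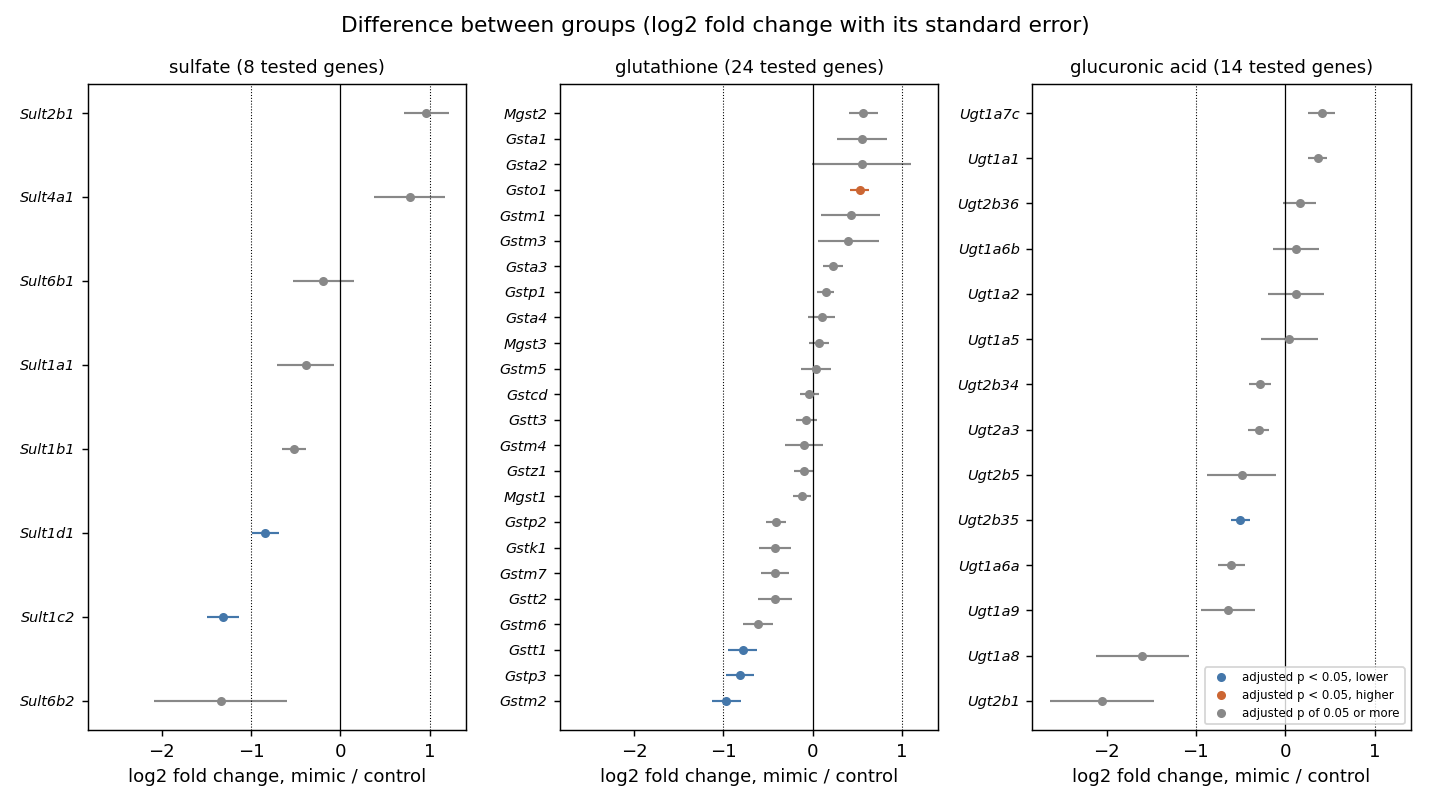
Log2 fold change of the mimic over the control for the 46 tested members, with bars of 1 SE, in one panel per class. Blue points passed an adjusted p of 0.05 with a lower level (6 genes), the orange point is Gsto1, grey points did not pass, and dotted lines mark a 2-fold difference.

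The glutathione class was the most abundant and held changes in both directions. Its summed TPM was 3047 and 3693 for the controls against 4501 and 3615 for the mimic libraries, so the groups overlapped and mimic 3 was the highest. Of 24 tested genes 3 fell, 1 rose, and the signs were near balance, with 13 below 0 and 11 above. The median log2 fold change was -0.06 where that of all tested genes was -0.01, and 0.01 on the log2(TPM + 1) scale, where all genes had a median of 0.06, so the class stayed slightly below all genes on both. The most abundant members were not those that passed, apart from Gsto1.

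Gsto1, the omega-class enzyme known as a thioltransferase and dehydroascorbate reductase, had 237, 258, 374 and 367 TPM. Both mimic libraries were well above both controls and close to each other. It rose by 0.52 ± 0.11 on the log2 scale, 1.44-fold (adjusted p = 0.0452). The adjusted p was 0.0671 without control 1, 0.218 without mimic 3 and 0.051 with upper-quartile scaling, and ran from 0.00149 to 0.314 over the alternatives. The other omega-class gene, Gsto2, did not pass the filter and stayed at or under 0.39 TPM.

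Gstm2, a mu-class cytosolic GST, had 29.6, 35.8, 18.5 and 16.2 TPM from 918, 887, 468 and 426 expected counts. Both mimic libraries were under both controls. Its log2 fold change was -0.97 ± 0.16 (adjusted p = 0.0271), 1.95-fold and just under the fold threshold, and it passed without each library in turn. The 7 mu-class genes lie side by side at chr3:107895821-108044894, all were tested, and Gstm2 alone passed. Gstm1 and Gstm3, the most abundant mu-class genes, had log2 fold changes of 0.42 ± 0.33 and 0.39 ± 0.34. Gstm1 had 203, 274, 441 and 218 TPM and Gstm3 152, 288, 376 and 218 TPM, so mimic 3 was the highest library for both, and control 2 lay above mimic 4. The ratio of Gstm2 to Gstm1 was 0.146 and 0.131 for the controls against 0.0419 and 0.0741 for the mimic libraries.

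The pi-class genes, which lie together at chr19:4035407-4059569, split in a similar manner. Gstp3 had 49.9, 48.7, 24.1 and 34.2 TPM and fell by 0.82 ± 0.16 on the log2 scale (adjusted p = 0.0388). Without mimic 3 it was -0.63 with an adjusted p of 0.126, and over the alternatives the adjusted p ran from 0.000387 to 0.322. Gstp1, the main pi-class enzyme, had 512, 539, 572 and 633 TPM, and its difference of 0.14 ± 0.09 did not pass (adjusted p = 0.373). Gstp2 had 115, 129, 94.8 and 95.2 TPM (log2 fold change -0.41 ± 0.11, adjusted p = 0.0843). Gstp1 and Gstp2 share sequence, and 41.6% of the windows of Gstp2 occurred in Gstp1, so reads of both were divided by estimation, whereas all windows of Gstp3 were its own. Their sum was 627 and 668 TPM for the controls against 667 and 728 TPM for the mimic libraries.

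Gstt1, a theta-class enzyme that acts on small halogenated compounds, had 55.0, 40.9, 26.3 and 32.0 TPM. Control 1 was the highest, and the groups did not overlap. It fell by 0.78 ± 0.16 on the log2 scale (adjusted p = 0.0471). The adjusted p was 0.0721 without control 1, 0.11 without mimic 3 and 0.0531 with scaling to library totals, within a range of 0.000696 to 0.323. Gstt2 and Gstt3 beside it on chromosome 10 had overlapping groups, and Gstt4 did not pass the filter.

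Gsta1, an alpha-class enzyme, had the highest mean level of all members and a wide spread. It stood at 493, 779, 1170 and 745 TPM, with mimic 4 under control 2. The difference of 0.55 ± 0.28 did not pass (adjusted p = 0.265), and it passed without control 2 (0.91, adjusted p = 0.0389) and without mimic 4 (0.89, adjusted p = 0.0488), within a range of 0.0389 to 0.881. Only 19.4% of its windows were its own, and 64.7% occurred in the neighboring gene Gm3776, which had 202, 319, 543 and 253 TPM in the same order of libraries. Gsta4, which detoxifies the lipid peroxidation product 4-hydroxynonenal, had 383, 451, 510 and 417 TPM and a log2 fold change of 0.10 ± 0.15 (adjusted p = 0.725), which was -0.01 without control 1 and -0.12 without mimic 3. Mgst1, a membrane-bound enzyme, had 352, 365, 341 and 335 TPM and a difference of -0.13 ± 0.10 (adjusted p = 0.472). These levels lay within a narrow band in all libraries.

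Mgst2, a membrane-bound enzyme with leukotriene C4 synthase activity, had 75.0, 76.9, 153 and 107 TPM, mimic above control (log2 fold change 0.57 ± 0.17, adjusted p = 0.0993). Gstm6 was the lowest of the members that did not pass in this class (-0.62 ± 0.17, adjusted p = 0.0869), with 38.7, 56.6, 32.4 and 32.1 TPM. Gstk1, the mitochondrial and peroxisomal kappa-class enzyme, had -0.42 ± 0.18, and Gstz1, the maleylacetoacetate isomerase of tyrosine breakdown, -0.10 ± 0.11. The other tested glutathione genes lay between -0.43 and 0.55, and none passed.

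**Figure D3:**
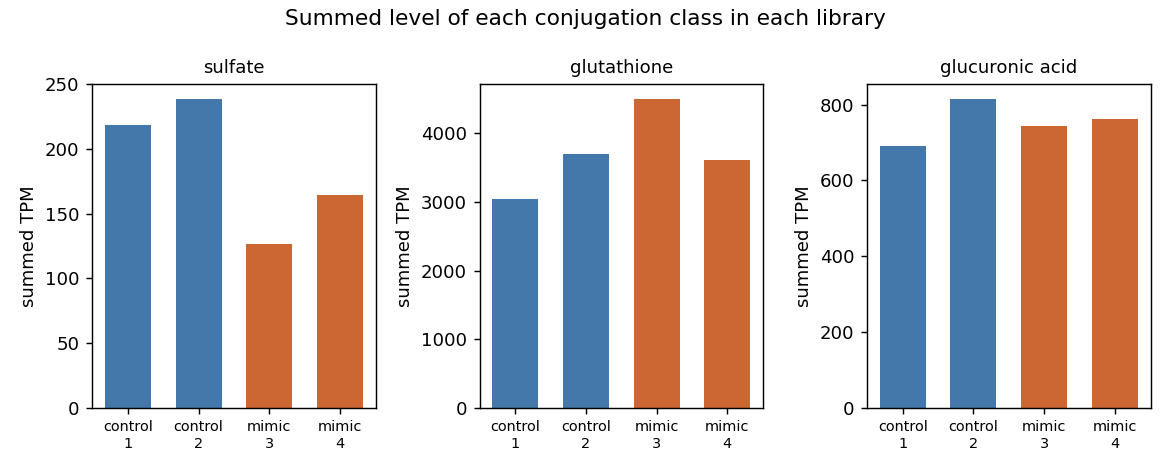
Summed TPM of all listed genes of each class in each library, on axes that start at 0 and differ between panels. The sulfate bars of both mimic libraries (127 and 164) are below those of the controls (218 and 238), and the bars of the other classes overlap between groups.

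In the glucuronic acid class the summed level was alike in the groups while its composition differed. The sum was 692 and 815 TPM for the controls against 743 and 762 TPM for the mimic libraries, and the ratio of the means was 0.999. The Ugt1a genes summed to 285, 351, 402 and 375 TPM, higher in both mimic libraries. The Ugt2b genes summed to 371, 430, 311 and 360 TPM, lower in both mimic libraries. Of 14 tested genes 1 fell, Ugt2b35. The median log2 fold change was -0.29, and over 14 genes it was -0.08 without mimic 4, -0.11 without control 2, -0.34 without control 1 and -0.40 without mimic 3. Without a filter on low counts, which added genes near 0 to make 18, it was 0.09, and on the log2(TPM + 1) scale without a filter 0.02.

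Ugt2b35, a Ugt2b enzyme, a family known for steroids and bile acids, had 81.9, 79.5, 52.8 and 66.8 TPM. The controls were close to each other and above both mimic libraries. It fell by 0.50 ± 0.11 on the log2 scale, 1.42-fold (adjusted p = 0.0497), and passed in 6 of 17 alternatives. The adjusted p was 0.0625 without control 1, 0.294 without mimic 3 and 0.0514 without mimic 4, and ran from 0.00349 to 0.341. Ugt2b34, the most abundant UGT gene, had 271, 327, 236 and 279 TPM with overlapping groups (log2 fold change -0.28 ± 0.12, adjusted p = 0.208).

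The Ugt2 genes share a stretch of chromosome 5 with sulfotransferases. Between 86889767 and 87591594 lie 13 members, of which 8 were tested. In these 7 differences were below 0 and 1 above, where 8822 of all 17155 tested genes were below 0. Among them 2 of the 8 genes fell, Ugt2b35 and Sult1d1, against 2.29% of all tested genes. A trend along this stretch was not tested. Ugt2b1 had the lowest log2 fold change of any member (-2.05 ± 0.58, adjusted p = 0.0936), at levels of 0.17, 0.33, 0.06 and 0.06 TPM. Ugt2a1, Ugt2a2, Ugt2b37 and Ugt2b38 did not pass the filter.

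The Ugt1a genes are a single locus at chr1:88055388-88220002, in which each enzyme has a first exon and promoter of its own, spliced to a shared set of 3' exons. As a result between 22.6% and 49.6% of each gene's windows were its own, and the division of reads among them was an estimate. Their levels are given with that limit. Ugt1a1, the bilirubin-conjugating enzyme, had 150, 172, 216 and 216 TPM, both mimic libraries above both controls (log2 fold change 0.36 ± 0.11, adjusted p = 0.1). Ugt1a7c had 77.3, 102, 132 and 116 TPM (0.41 ± 0.15, adjusted p = 0.162), again above. Both passed without control 2 (0.46, adjusted p = 0.0261, and 0.61, adjusted p = 0.021), in ranges up to 0.459 and 0.601. Ugt1a6a, which conjugates small planar phenols, went the other way with 44.7, 54.5, 35.6 and 28.7 TPM (-0.60 ± 0.15, adjusted p = 0.0745). None of the 3 passed in the quasi-likelihood test of all 4 libraries. DESeq2 placed Ugt1a1 (adjusted p = 0.0467) and Ugt1a6a (adjusted p = 0.0149) under the threshold. In the quasi-likelihood test Ugt1a6a passed without control 1 (-0.73, adjusted p = 0.033) and without mimic 3 (-0.81, adjusted p = 0.0229), within a range of 0.009 to 0.322.

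Within this locus the ratio of Ugt1a1 to Ugt1a6a, both estimates from partly shared sequence, differed between the groups. Ugt1a1 stood at 3.36 and 3.16 times the level of Ugt1a6a for the controls, against 6.07 and 7.54 times for the mimic libraries. Ugt1a6a held 15.6% and 15.5% of the locus's TPM for the controls, against 8.86% and 7.66% for the mimic libraries. No test was run of these or of the other ratios given here. Each was formed from genes of opposite sign in the count test, so its separation follows from that choice and is not further support. Among the remaining genes of the locus, Ugt1a8 was low throughout (0.55, 0.74, 0.33 and 0.11 TPM), Ugt1a2, Ugt1a5, Ugt1a6b and Ugt1a9 had overlapping groups, and Ugt1a10 did not pass the filter.

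**Figure D4:**
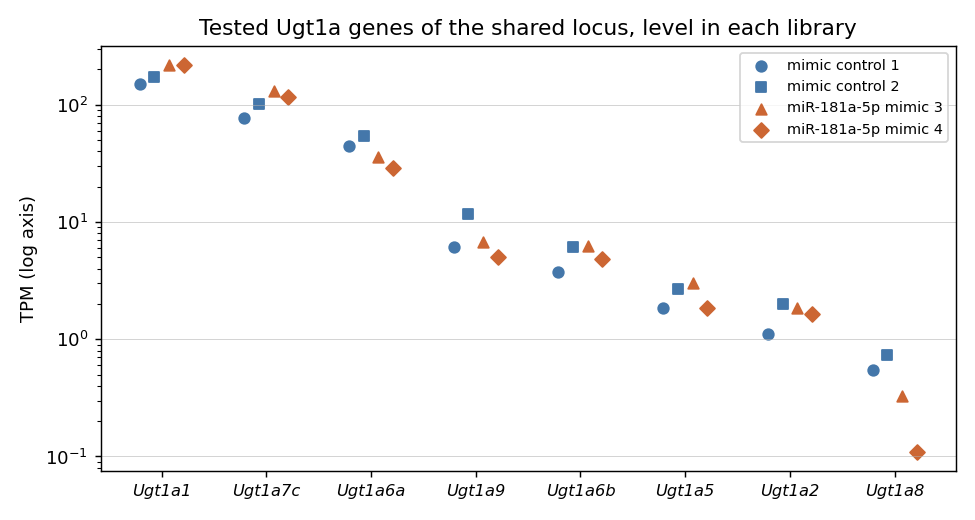
TPM (log axis) of the 8 tested Ugt1a genes in each library, ordered by mean level. Ugt1a1 and Ugt1a7c have both mimic symbols above both controls, and Ugt1a6a has both below.

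Promoters were read from RefSeq (GRCm38.p6, 250 bases before to 50 after the start) for 59 of the 66 members. They are shown for the pair of the Ugt1a locus that went opposite ways, and for the sulfotransferases that fell. Searched on both strands were the core of the antioxidant response element, bound by NRF2 (TGACNNNGC), the core of the xenobiotic response element, bound by AHR (GCGTG), and a half-site of HNF1 (GTTAAT). Capitals mark any match, and the 300-base windows lie at chr1:88134559-88134858 and chr1:88211709-88212008 (plus strand), chr5:87568957-87569256 and chr17:53845909-53846208 (minus strand).
Ugt1a6a: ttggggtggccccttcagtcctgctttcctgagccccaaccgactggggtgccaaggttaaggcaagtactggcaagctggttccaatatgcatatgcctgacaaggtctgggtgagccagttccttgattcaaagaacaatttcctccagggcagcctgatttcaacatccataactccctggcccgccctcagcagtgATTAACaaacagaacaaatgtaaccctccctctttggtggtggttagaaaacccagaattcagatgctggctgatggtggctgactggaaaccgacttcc
Ugt1a1: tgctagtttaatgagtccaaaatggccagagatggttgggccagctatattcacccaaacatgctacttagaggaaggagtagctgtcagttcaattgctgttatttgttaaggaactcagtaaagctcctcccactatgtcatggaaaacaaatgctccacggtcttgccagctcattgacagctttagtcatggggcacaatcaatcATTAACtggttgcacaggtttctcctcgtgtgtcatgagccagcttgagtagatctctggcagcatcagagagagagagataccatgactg
Sult1d1: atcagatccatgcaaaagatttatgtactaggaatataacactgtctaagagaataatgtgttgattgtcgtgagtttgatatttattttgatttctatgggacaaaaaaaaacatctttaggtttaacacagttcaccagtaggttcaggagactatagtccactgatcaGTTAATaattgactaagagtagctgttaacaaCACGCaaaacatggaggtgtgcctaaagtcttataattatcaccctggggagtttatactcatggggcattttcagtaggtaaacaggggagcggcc
Sult1c2: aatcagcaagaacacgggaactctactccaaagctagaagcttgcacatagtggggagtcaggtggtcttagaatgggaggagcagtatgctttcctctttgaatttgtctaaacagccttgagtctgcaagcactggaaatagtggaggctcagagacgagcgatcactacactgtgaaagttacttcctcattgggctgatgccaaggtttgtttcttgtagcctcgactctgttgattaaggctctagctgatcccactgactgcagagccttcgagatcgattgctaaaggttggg
Ugt1a6a and Ugt1a1, opposite in sign, each held an HNF1 half-site, at -50 and -41. Sult1d1 held that half-site at -79 and a xenobiotic core at -47, and Sult1c2 held none of the 3. Some genes had more than 1 promoter window, and a gene was counted when any of its windows matched. Over all members, 4 of 59 genes held the antioxidant core (14% of all 27025 genes read). All of them were GST genes (Gsta3, Gstm5, Gstm7 and Mgst1). The xenobiotic core was held by 13 member genes (35.2% of all genes) and the half-site by 13 (8.24% of all genes), of which 7 were sulfotransferases. Of these 7 sulfotransferases only 2 were tested, Sult1a1 and Sult1d1. The others (Sult2a3, Sult2a4, Sult2a5, Sult2a6 and Sult3a2) had no counts in any library. Such short letters are a description and not a binding site.

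Genes that supply, export and control these enzymes were read from a list of 50, of which 49 were listed and 41 tested. Of these 3 fell (7.32%), Abcc3, Nr1i3 and Ephx2, and 0 rose, against 2.29% and 1.28% of all tested genes. Ephx2 alone was called (2.44%), where 1.47% of all tested genes were called lower. At an unadjusted p under 0.05, 7 of the 41 were higher and 5 lower, against 11.8% and 13% of all tested genes. DESeq2 also called 1 gene lower and 0 higher. Sts was not analysed here.

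Among the suppliers of the donor molecules none passed. Ugdh, which makes UDP-glucuronic acid, had 76.2, 113, 250 and 152 TPM, so both mimic libraries were above both controls and mimic 3 the highest. Its log2 fold change of 1.10 ± 0.27 did not pass (adjusted p = 0.0726), and it was called without control 2 (1.42, adjusted p = 0.00892) and without mimic 4 (1.45, adjusted p = 0.00155), within a range of 0.00155 to 0.34. Papss1, a PAPS synthase, had 69.2, 63.5, 75.5 and 85.7 TPM (0.21 ± 0.10, adjusted p = 0.228). Papss2, the second PAPS synthase, had 10.1, 17.8, 11.1 and 10.4 TPM (-0.41 ± 0.25, adjusted p = 0.339), a difference that rested on control 2, since it was 0.08 without that library. Without control 1 it was -0.78 with an adjusted p of 0.0149, the lowest of a range up to 0.777. Gclc, the catalytic subunit of glutamate-cysteine ligase, had 18.7, 20.3, 27.2 and 23.7 TPM (0.45 ± 0.12, adjusted p = 0.0887), and without mimic 4 it was 0.60 with an adjusted p of 0.0465 in a range of 0.0288 to 0.431. Of the 7 genes of glutathione synthesis and later mercapturate steps (with Ggt1, Dpep1 and Nat8) 6 differences were above 0, and of the 4 genes of UDP-glucuronic acid supply and glucuronide cleavage (with Gusb) all 4. Over all tested genes 8333 of 17155 were above 0. None of the genes in these sets passed, and some differences were near 0 (0.11 for Gss and for Ugp2).

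Abcc3, an exporter of glucuronides and other conjugates, had 53.0, 46.5, 25.9 and 28.5 TPM. Both mimic libraries were far below both controls. It fell by 0.86 ± 0.10 on the log2 scale (adjusted p = 0.0101), and passed without each library in turn. Abcc2, the apical exporter of conjugates, had 132, 150, 102 and 104 TPM (-0.30 ± 0.11, adjusted p = 0.154), and Abcg2, an apical exporter of sulfates and drugs, 34.8, 35.5, 39.3 and 37.4 TPM (0.09 ± 0.10, adjusted p = 0.611).

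Of the 12 regulators 1 passed. Nr1i3, the constitutive androstane receptor, had 26.5, 25.0, 15.7 and 16.4 TPM and fell by 0.69 ± 0.13 on the log2 scale (adjusted p = 0.0353). Its adjusted p was 0.0537 without control 1, 0.0806 without mimic 3 and 0.0533 without mimic 4, within a range of 0.000227 to 0.279. Nr1i2, the pregnane X receptor, had 19.5, 21.8, 22.4 and 23.6 TPM (0.09 ± 0.11, adjusted p = 0.62), and Nfe2l2, which encodes NRF2, 105, 121, 116 and 127 TPM (0.10 ± 0.10, adjusted p = 0.586), a difference of about 0 without control 1 (-0.0041). The levels of Nr1i2 and Nfe2l2 lay close together in all libraries.

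Ephx2, the soluble epoxide hydrolase, had 58.7, 69.3, 29.99 and 35.5 TPM. The log2 fold change was -1.04 ± 0.11 (adjusted p = 0.00812), with both mimic libraries far below both controls. Its adjusted p stayed under the threshold without each library, but the fold change fell under 2 without control 2 and without mimic 3 (the highest of these log2 fold changes was -0.92). Hpgds, a sigma-class GST outside the symbol rule, stayed between 0.69 and 0.85 TPM with a log2 fold change of 0.00 ± 0.26 that changed sign between alternatives. Ugt3a1, Ugt3a2 and Nnmt were at 0 in all libraries.

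**Figure D5:**
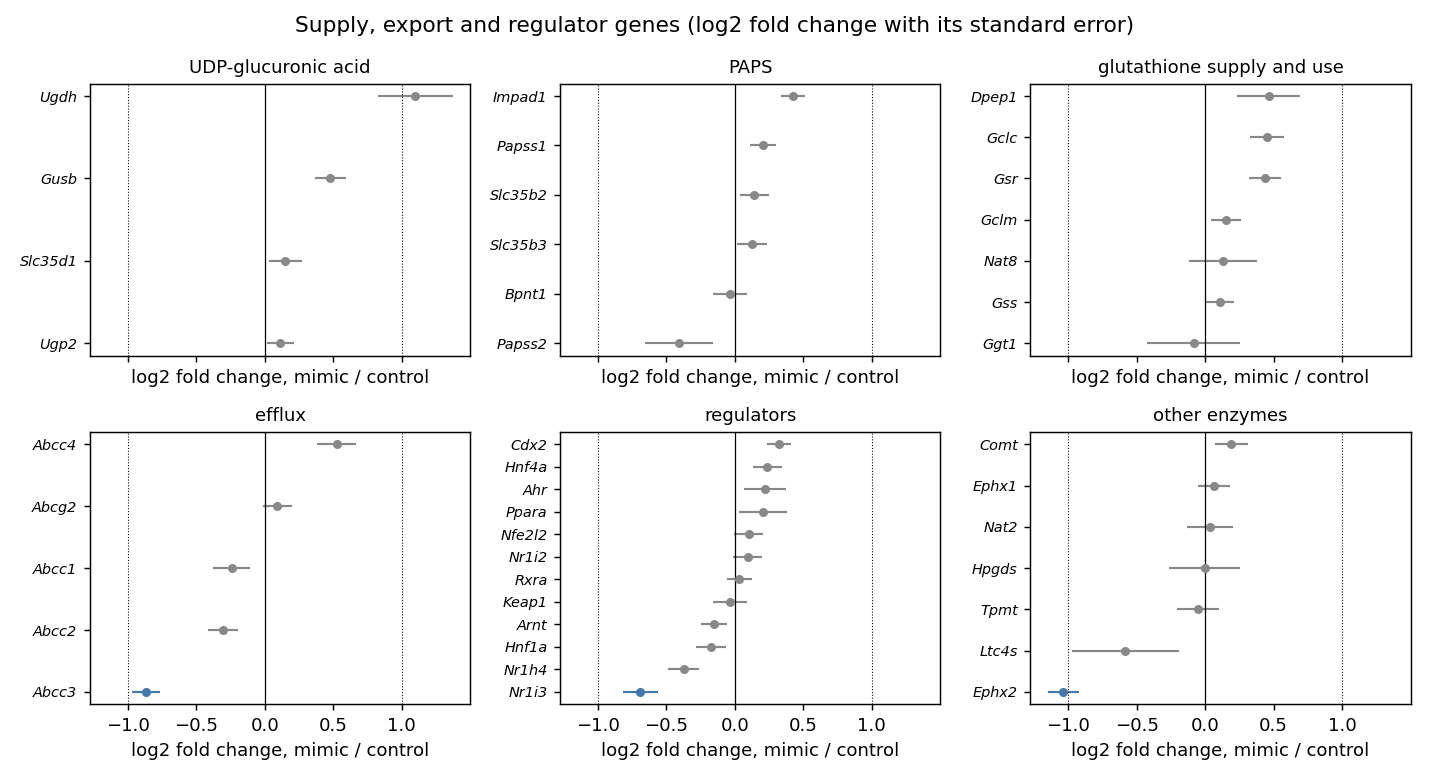
Log2 fold change of the mimic over the control for the 41 tested supply, export and regulator genes, with bars of 1 SE, in panels by role. The 3 blue points, Abcc3, Nr1i3 and Ephx2, passed an adjusted p of 0.05, Ugdh is the highest point, and dotted lines mark a 2-fold difference.

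The libraries held 31104884 to 38111731 expected counts, so the members that passed rest on 369 to 9563 counts per library and their precision is set by the spread between 2 libraries. Under scaling to library totals 46.5% of the genes past an adjusted p of 0.05 were higher with the mimic, against 35.9% with the scaling used here, and 27.9% with upper-quartile factors. With each other scaling the median of all genes stayed within 0.1 of 0, and the members that passed kept their direction.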

How the data were processed

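The RNA-seq libraries were made by the study from SI organoids of both groups, and the supplemental methods describe ribosomal RNA depletion where the labels describe poly(A) selection. The authors trimmed reads with Trimmomatic, quantified them with RSEM on GRCm38 transcripts and deposited expected counts, which are not normalized, and TPM, which are scaled to 1 total per library. The versions and annotation release are not given in the sources used here. A further 3 columns of each file matched no sample and were not used.

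Members were matched by symbol and Ensembl identifier. The members, gene lists and tests were chosen with earlier results of these data known. Rounded counts went through filterByExpr, TMM scaling, glmQLFit and glmQLFTest of edgeR 4.0.16 (R 4.3.3), with the common coefficient of variation at 0.13. The SE is the log2 fold change divided by the root of F. Named genes were every member or supply, export and regulator gene with an adjusted p under 0.05, in each class the 5 members of highest mean TPM and the 2 of smallest p, and Ugdh, Papss1, Papss2, Gclc, Nfe2l2, Nr1i2, Abcc2, Abcg2 and Hpgds. Other named genes (Mgst2, Gstm1, Gstm3, Gstm6, Gstp2, Gstk1, Gstz1, Ugt1a8, Ugt2b1 and Gm3776) were chosen after their values were seen. Alternatives used DESeq2 1.42.0, limma 3.58.1 on log2(TPM + 1) and log2(TPM + 0.1), edgeR's exact, likelihood-ratio, robust and legacy tests (the last chosen after seeing the data), other scaling and filters, and leaving out each library. Fold changes on the log2(TPM + 1) scale understate those of low genes. With 2 libraries a group an exact permutation test of 1 gene cannot go below p = 0.333. The fits were tested on simulated data. Shared sequence was measured in windows of 100 bases of annotated transcripts. Plots were drawn with matplotlib.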

Additional observations from a re-analysis of the deposited data

How the results depend on the processing

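The main counts were 1 member called lower, 0 called higher, 6 past the adjusted p lower and 1 higher. Members called lower numbered 2 with the exact test, 3 with the likelihood-ratio test, 2 with upper-quartile factors, and 0 without a filter or with any of the limma fits on TPM. Leaving out each library gave 1 to 4 called lower, 0 to 1 called higher, 5 to 8 past the adjusted p lower and 0 to 5 higher. The number past the adjusted p and lower was 11 with the exact test, 12 with the likelihood-ratio test and 0 without a filter or with the limma fits, and the number higher was 3 with the exact and likelihood-ratio tests, 4 with DESeq2 and 0 with upper-quartile factors, without a filter and with the limma fits. At an unadjusted p under 0.05 the fit without a filter on low counts held 22 of 52 members, beside 4744 of 29212 genes, and limma on log2(TPM + 1) 18 of 42 members, beside 2925 of 14035 genes. The other limma fits held 17 of 42 and 18 of 52 members, beside 2875 of 14035 and 3960 of 29214 genes. Of the supply, export and regulator genes, 1 was called higher by the exact and likelihood-ratio tests, 0 were called lower by the limma fits, and leaving out each library gave 0 to 1 in each direction. With a library left out, the lone library of its group was assumed to vary like the other group. The cause of these differences was not tested.

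Of the comparisons of a named gene with an alternative, 410 kept direction and side of the threshold, 56 lost and 29 gained it, and 13 changed sign. Those 13 were Gsta4 (-0.01 without control 1, -0.12 without mimic 3), Nfe2l2 (-0.0041 without control 1), Papss2 (0.076 without control 2) and 9 values of Hpgds, at 0.00087 with the exact and likelihood-ratio tests, 0.011 with DESeq2, 0.0049 with RLE factors, 0.017 with library totals, 0.0038 without a filter, 0.0022 with the legacy test, and 0.17 and 0.03 without control 1 and mimic 4. Without each library in turn Gsta4 ran from -0.12 to 0.30, Hpgds from -0.14 to 0.17, Nfe2l2 from -0.0041 to 0.21 and Papss2 from -0.78 to 0.076. The call of Sult1c2 was lost only without a filter (adjusted p = 0.0507) and in the limma fits (up to 0.314) among the 17 alternatives, over which its adjusted p began at 7.93e-09. No paired analysis was possible because the groups share no replicate number. No group had the 4 libraries needed to look for a library far from the others.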
